A study of Mus musculus with 9 samples.

Results

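The genes described here encode inhibitory receptors and their ligands that myeloid cells and tumour cells carry on the surface or secrete. There were 10 of them, listed by name and not by a rule on their values: Cd274 (PD-L1), Pdcd1lg2 (PD-L2), Sirpa, Cd47, Vsir (VISTA), Havcr2 (TIM-3), Siglece, Lgals9 (galectin-9), Lilrb4a and Cd200r1. Earlier results of these data were known when they were chosen. Of the 10 genes, 9 were found by symbol among the 18049 genes of the expression table. Pdcd1lg2 was not analysed here.

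RNA-sequencing was carried out on 9 clones of mouse tumor cells in primary culture (MPC). All 9 clones came from WTg mice (EL1-Luc/EL1-Tag x CAG-Mettl3), in which the elastase I promoter, active in pancreatic acinar cells, drives SV40 large T antigen and luciferase, and the ubiquitous CAG promoter drives Mettl3, the catalytic subunit of the enzyme complex that writes m6A on RNA. The sample labels give the treatment as none, although a protocol field names 80 nM NMS-P937 for 24 h, and no clone of another genotype was analysed. The clones form a single group, so no comparison between conditions could be made, and the values below describe how the checkpoint genes varied from clone to clone. No age or sex of the mice is given, and nothing says how many mice the clones came from, so the p-values measure the spread between these clones, some of which may share a source.

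Checkpoint receptors of this kind carry immunoreceptor tyrosine-based motifs in their cytoplasmic tails or signal through comparable tails, and they restrain the cell that bears them when a ligand is bound. SIRPα on a macrophage binds CD47 on a target cell and blocks its engulfment, a signal passed on by the phosphatases SHP-1 (Ptpn6) and SHP-2 (Ptpn11). PD-L1 and VISTA restrain T cells and are found on tumour-associated myeloid cells, Siglec-E, LILRB4 and CD200R1 signal within the myeloid cell, and TIM-3 is carried by T cells and by myeloid cells.

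The column names of the 9 libraries began with 3 different prefixes, called A (1 library), B (4 libraries, B1 to B4) and C (4 libraries, C1 to C4) here. What the prefixes stand for is not stated. The depth ran from 12198036 gene-assigned reads in library A to 20453901 in B4. Mettl3 itself stood at 2184 normalized counts in library A and between 468 and 621 in the other 8 libraries. Xist, expressed from an inactive X chromosome, was between 29664 and 32912 normalized counts in the B libraries and at most 8.39 in A and C, so prefix, mouse of origin and sex cannot be told apart. A normalized count is a read count multiplied by 1 factor per library, and 1 read was worth 1.26 to 2.19 of them.

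The labels call the cells fibroblasts. All 14 fibroblast markers were listed, and 13 of them, all but Lum, were over the floor of 3 reads in every clone. Their summed level ranged from 369380 to 1011078 normalized counts. All 16 macrophage markers, among them Lyz2, Csf1r, Adgre1 and C1qa, were also over the floor of 3 reads in every clone, and their sum ranged from 601954 to 952956. The macrophage markers thus go against a label of fibroblasts alone, and in bulk RNA a smaller share of cells of a type and less RNA per cell cannot be told apart. Of 8 T and NK cell markers only Lck was listed, at 2.55 to 8.75 normalized counts, and of 4 B cell markers none was. Of 5 epithelial markers, Cdh1 and Krt19 were over the floor of 3 reads in every clone, at 8.91 to 152 and 7.23 to 145 normalized counts. Epcam, the epithelial adhesion marker, was at 0 in all 9 clones. The summed epithelial markers ranged from 20.3 to 188. The summed acinar markers were highest in library C3, at 2415 normalized counts against 144 to 396 in the other libraries. Outside C2 and C3 most of this sum was Cela1, and no other acinar marker exceeded 7.64 normalized counts there.

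Short promoter stretches are shown first for the 3 checkpoint genes in which a searched motif was found, to set their upstream letters beside the way they varied over the clones. RefSeq promoters (build GRCm38.p6, 250 bases before to 50 after the start) were at hand for 6 of the 9 genes, Cd274, Cd47, Vsir, Havcr2, Siglece and Lgals9. The letters GAGGAAG, the core bound by the myeloid factor PU.1, were searched on both strands and were held by 3 of the 6 promoters, against 13.6% of 32851 promoters in all. The interferon-stimulated response element, searched as GAAA, any 2 bases and GAAA again, was held by 1 of the 6, that of Lgals9, where it occurred at 2 places, against 3.44% of all promoters. TATAAA was found in none of the 6, against 13.6% of all promoters. A further motif that was searched is not reported here. Capitals mark the motif, which is written on the strand of the gene, so that a match on the opposite strand reads as its reverse complement, and positions count from the start site, negative before it.
Siglece, minus strand, chr7:43660235-43660257, motif at -88 from the start: ctgaagctCTTCCTCctgaggca
Siglece, minus strand, chr7:43660184-43660206, motif at -37: cgctggggCTTCCTCagggcctt
Havcr2, plus strand, chr11:46454915-46454937, motif at -8: aggagttaGAGGAAGtaccattt
Lgals9, minus strand, chr11:78985154-78985174, motif at -244: tggggtGAGGAAGcaggctca
Lgals9, minus strand, chr11:78984962-78984987, response element at -55: acatcagcTTTCTTTTTCtctagaca
Lgals9, minus strand, chr11:78984892-78984917, response element at 15: agctgtggTTTCTGTTTCctagctca
A match says only that these letters are present in the window. Both Siglece stretches lie inside the span of that gene, 43648882 to 43672044. On the minus strand, the start site they are counted from is thus internal and not the outer end at 43672044. Over the 9 clones, Pearson's r on the log2 scale was 0.51 for Havcr2 and Lgals9, -0.28 for Havcr2 and Siglece and -0.20 for Siglece and Lgals9, the 3 genes that hold GAGGAAG.

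All 9 genes were over the floor of 3 reads in all 9 clones, and the smallest count was 46 reads, for Siglece. Their coefficient of variation over the clones ranged from 17.6% to 37.0%, with a median of 22.3%. The median SD on the log2 scale was 0.33 for the 9 genes, against 0.30 over the 16962 genes that averaged 1 normalized count or more and 0.21 over the 12301 that averaged 50 or more. Transcript lengths were not used here, so levels are compared between clones for each gene and not between genes. Library C2 was lowest for 4 of the 9 genes and library C4 highest for 4. Over the 12301 genes that averaged 50 or more, C2 was lowest for 18.9% and C4 highest for 7.58%.

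**Figure D1:**
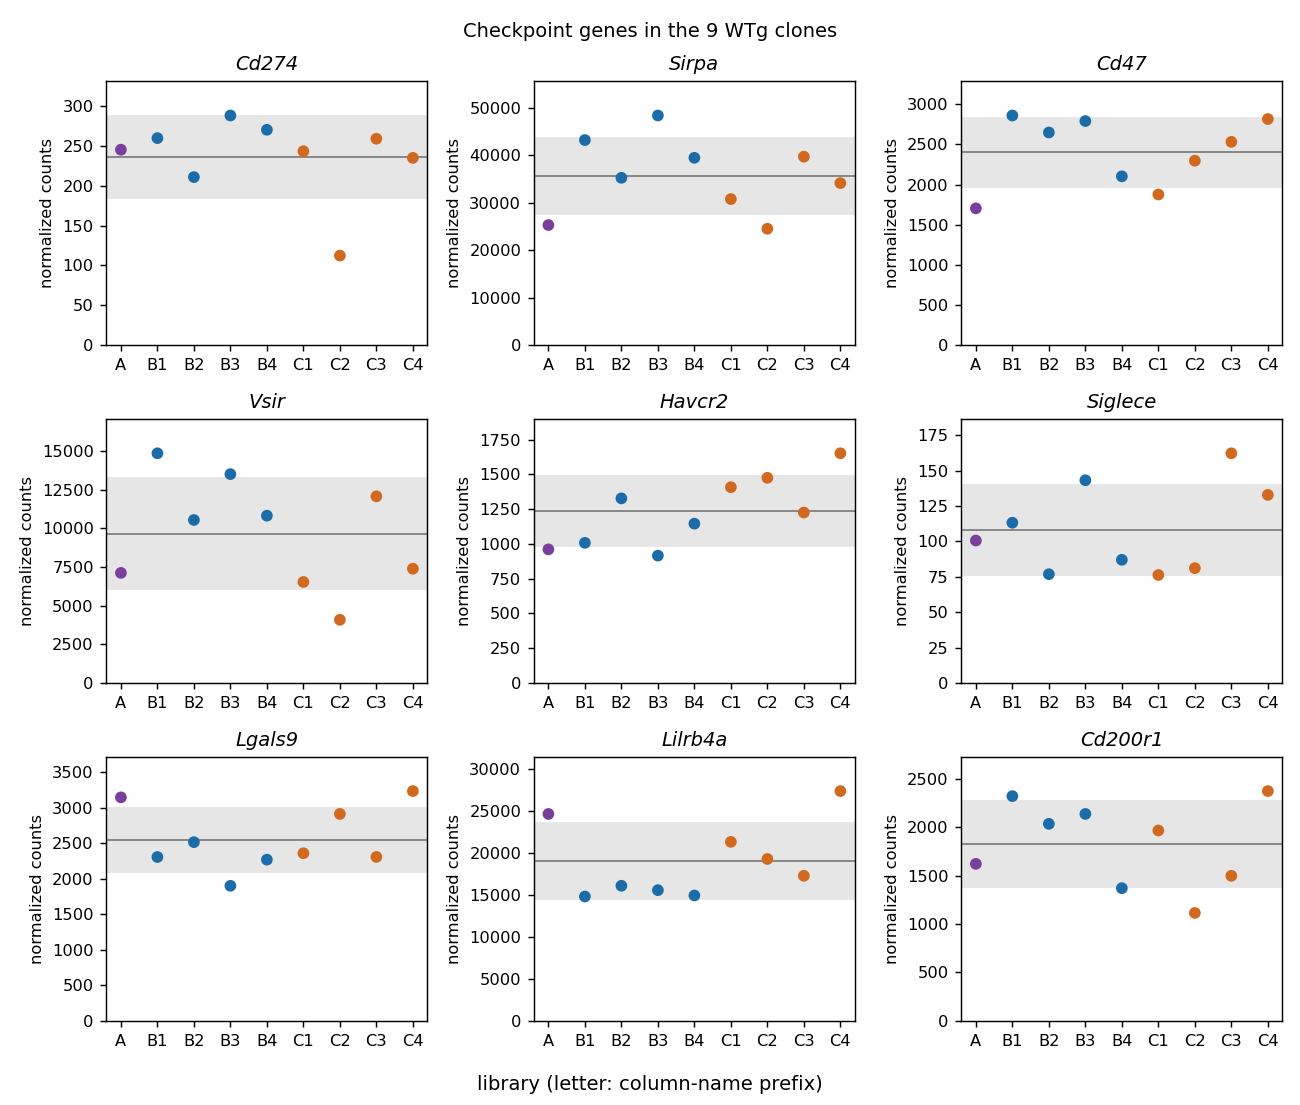
Normalized counts (y axis, from 0) of the 9 checkpoint genes in each of the 9 clones (x axis, library, coloured by column-name prefix), with the mean as a line and 1 SD over the 9 clones as the grey band. Vsir spread the most, from 4086 in C2 to 14842 in B1, and the single low point of Cd274 is C2 at 112.

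Among the ligands of T-cell receptors, Cd274 encodes PD-L1, which binds PD-1 and dampens T-cell activation (chromosome 19, 29362107 to 29388095 in GRCm38.p6). Its lowest, median and highest values were 112, 245 and 288 normalized counts, and its mean was 236 ± 51.2 (SD, n = 9). In 8 of the clones it lay between 211 and 288. The remaining clone, C2, rested on 72 reads, with a 95% Wilson interval of 89.3 to 142 normalized counts that does not reach the interval of any other clone. Such intervals cover counting error only. Cd274 was thus lower in C2 than in the other 8 clones. Those 8 were not all at one level, since the intervals of B2 (179 to 248) and B3 (251 to 331) did not overlap.

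Vsir, whose product VISTA keeps T cells quiescent and is strongly expressed on myeloid cells (chromosome 10, 60346851 to 60430294), was the most variable of the 9 genes. Its lowest, median and highest values were 4086, 10534 and 14842 normalized counts, a 3.63-fold range, and its mean was 9652 ± 3570 (SD, n = 9). Its log2 SD exceeded that of 94.6% of the 815 genes whose mean was within 2-fold of its own. All 4 B clones lay at 10534 or above, while C1, C2 and C4, at 6530, 4086 and 7386, and A, at 7116, lay below them. C3, at 12061, sat among the B clones, so the ranges of B and C overlapped.

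Lgals9 encodes galectin-9, a secreted lectin that is a ligand of TIM-3 (chromosome 11, 78962979 to 78984924). It was the least variable of the 9 genes by coefficient of variation, with a lowest, median and highest value of 1903, 2362 and 3237 normalized counts and a mean of 2553 ± 449 (SD, n = 9). The highest clones were C4 and A, at 3237 and 3149, and the lowest was B3.

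Cd47, the broadly expressed surface protein that protects cells from engulfment (chromosome 16, 49851328 to 49912503), ran from 1705 in A to 2860 in B1, with a median of 2532 and a mean of 2404 ± 429 normalized counts (SD, n = 9). The levels filled this 1.68-fold range without a break. The Cd47 values of B and C overlapped.

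Among the receptors on the myeloid cell, Sirpa, the receptor for CD47 (chromosome 2, 129591042 to 129632228), ran from 24530 in C2 through a median of 35245 to 48362 in B3, with a mean of 35634 ± 7956 normalized counts (SD, n = 9). A, at 25309, was next to the lowest. The ratio of Cd47 to Sirpa normalized counts, which carries the unequal lengths of both transcripts, moved between 0.0533 in B4 and 0.0937 in C2. Receptor and ligand thus varied by similar factors, of 1.97 and 1.68, and their ratio by 1.76.

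Lilrb4a encodes an inhibitory immunoglobulin-like receptor of macrophages and mast cells (chromosome 10, 51490898 to 51496613). The 4 B clones lay close together, at 14823, 16106, 15580 and 14949 normalized counts for B1 to B4. C1 to C4 stood at 21336, 19296, 17295 and 27392, and A at 24665. Lilrb4a was the one checkpoint gene whose B and C ranges did not overlap. The neighbouring paralog Lilr4b, an activating receptor of closely similar sequence, ran in the same order of prefixes, from 11249 to 12684 in B, from 13614 to 22146 in C and 24904 in A. Reads can be shared between such paralogs, so the split between both genes is uncertain.

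Havcr2, the TIM-3 receptor (chromosome 11, 46454931 to 46481255), had a lowest, median and highest value of 916, 1225 and 1651 normalized counts and a mean of 1235 ± 251 (SD, n = 9). B3 and A were lowest and C4 was highest. The ratio of Lgals9 to Havcr2 normalized counts was 3.28 in A and between 1.68 and 2.29 in the other 8 clones. Library A was therefore low for the receptor and high for the ligand.

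Cd200r1, the inhibitory receptor for CD200 (chromosome 16, 44765736 to 44794977), ran from 1114 in C2 through a median of 1966 to 2373 in C4, with a mean of 1826 ± 443 normalized counts (SD, n = 9). Neither end of the range was set off from the other clones. Its ligand gene Cd200 was at 0 in A, between 7.80 and 103 in 7 clones and at 320 in C3, the library with the highest acinar markers, whose part in this value was not tested.

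Siglece, a sialic acid-binding receptor of mouse myeloid cells (chromosome 7, 43648882 to 43672044), had the lowest counts of the 9 genes, with a lowest, median and highest value of 76.3, 101 and 162 normalized counts and a mean of 108 ± 31.7 (SD, n = 9). It rested on 46 to 116 reads per clone. The highest clones were C3, B3 and C4, at 162, 143 and 133, and they included clones of both B and C.

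**Figure D2:**
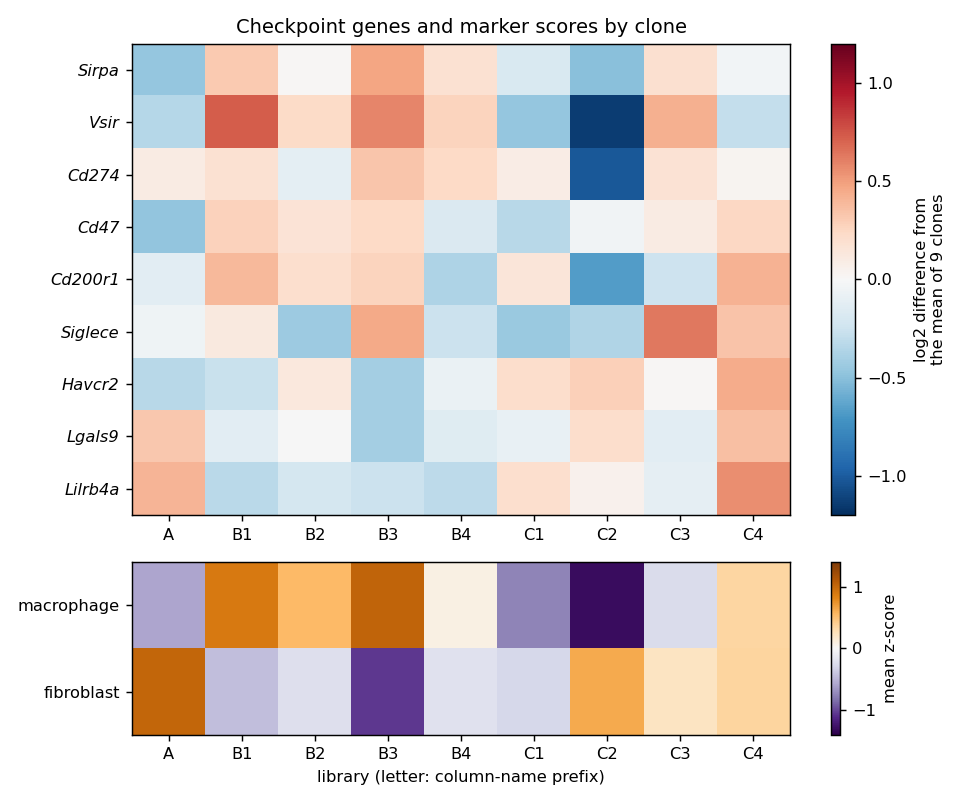
Difference of each clone from the mean of the 9 clones on the log2(normalized counts + 1) scale for the 9 checkpoint genes (upper block, rows, colour bar in log2 units), and mean z-score of the 16 macrophage and 14 fibroblast markers (lower block) in the same libraries (columns). Sirpa and Vsir are low in C2 and A and high in B3 and B1, as the macrophage score is, C1 is lower than A in that score and in Vsir but not in Sirpa, and Lilrb4a and Lgals9 are high in A and C4.

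Described as Pearson's r over the 9 clones on the log2 scale, Sirpa and Vsir were the most alike pair of checkpoint genes, with r = 0.91, and Lgals9 and Lilrb4a followed with r = 0.81. Sirpa and Lgals9 ran in opposite order, with r = -0.79. Clones of 1 prefix may share a source and library A was the shallowest, and no test was attached to the r values. Among 12300 genes that averaged 50 normalized counts or more, those most like Vsir were Arrdc2 (r = 0.99), Rgs10 (r = 0.99) and Ing4 (r = 0.99), and 109 genes were over 0.95. For Cd274 they were Armc8 (r = 0.97), Gm26947 (r = 0.96) and Cyria (r = 0.96), with 6 genes over 0.95. For Siglece they were Gm12940 (r = 0.94), Fam168a (r = 0.94) and Zfp946 (r = 0.91), with none over 0.95.

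The prefixes B and C were compared because they were the only split with several libraries on each side. None of the 9 checkpoint genes passed limma with Benjamini-Hochberg adjustment over all genes at 0.05, where 29 of 16962 genes did (0.171%, with 0.1% higher and 0.0707% lower in C), 3 of the 9 had an unadjusted p under 0.05, beside 3148 of the 16962 genes, and voom on the recovered reads also called 0 of the 9. On the log2(normalized counts + 1) scale, Lilrb4a was 0.45 higher in C (SE 0.14, limma adjusted p = 0.175) and Havcr2 0.40 higher (SE 0.13, limma adjusted p = 0.194). Vsir differed by -0.82 (SE 0.29, limma adjusted p = 0.208) and Sirpa by -0.38 (SE 0.17, limma adjusted p = 0.272). Of the 9 genes, 1 had ranges that did not overlap, Lilrb4a with C higher, against 4.24% of all genes in that direction, 5.25% in the other and 9.49% in either. The median difference of the 9 genes was -0.13, beside -0.02 over all genes tested. The summed macrophage markers were 776154 to 891428 in B and 601954 to 952956 in C, and the summed fibroblast markers 369380 to 591983 and 513106 to 1011078. With both marker scores as terms, a fit added after the data had been seen, the difference of Vsir was -0.034 and that of Lilrb4a 0.60 (limma adjusted p = 0.9997 and 0.855).

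**Figure D3:**
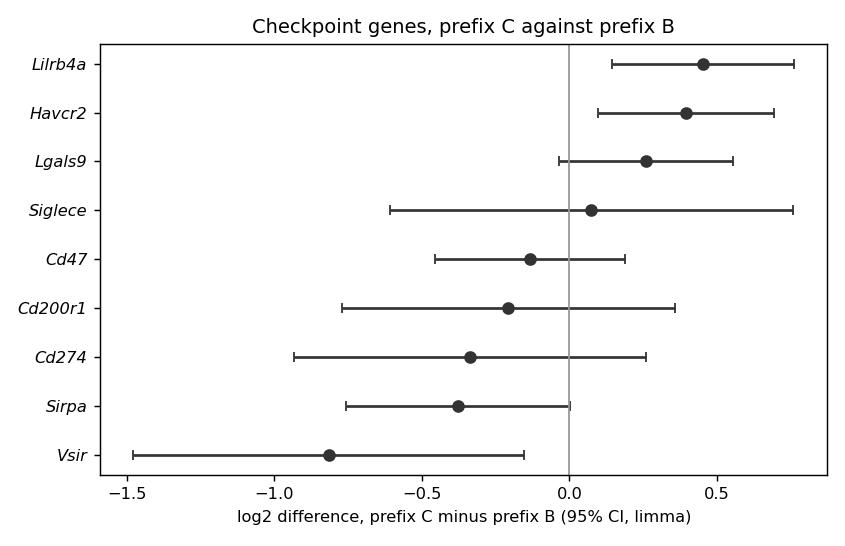
Difference between prefix C (4 clones) and prefix B (4 clones) for each checkpoint gene (y axis) on the log2(normalized counts + 1) scale (x axis, C minus B), with the 95% confidence interval of limma. The intervals of Lilrb4a, Havcr2 and Vsir leave out 0 before adjustment, and no gene passed after it.

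Because the transgene overexpresses Mettl3, each gene was also fitted against log2 Mettl3 over the 9 clones. No checkpoint gene passed (limma with Benjamini-Hochberg adjustment, 0 of 9), where 417 of 16961 genes did (2.46%), none of the 9 had an unadjusted p under 0.05, beside 2476 of the 16961 genes, and voom called 0 of the 9 as well. The slopes ran from -0.22 for Havcr2 (95% interval -0.49 to 0.06) to 0.17 for Lilrb4a (95% interval -0.17 to 0.50) per log2 unit of Mettl3. This fit rests on library A, the only clone with high Mettl3, and without it no gene passed at all.

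The macrophage score was the mean z-score of the 16 markers over the clones, and none of the 9 checkpoint genes is among them. Vsir rose by 0.65 log2 units per unit of score (SE 0.13, limma adjusted p = 0.0246) and Sirpa by 0.36 (SE 0.09, limma adjusted p = 0.0371). These were 2 of the 9 genes, where 5.19% of 16946 genes were called higher, 3.35% lower and 8.54% in either direction. Cd200r1, Cd274 and Cd47 had slopes of 0.35, 0.33 and 0.24 and did not pass after adjustment (limma adjusted p = 0.0722, 0.156 and 0.10). Havcr2, Lgals9 and Lilrb4a had slopes of -0.16, -0.16 and -0.19, also not called. Both calls were lost when library B1, B3 or C2 was left out, and when prefix was a term in the fit (Vsir 0.57, limma adjusted p = 0.355, and Sirpa 0.32, limma adjusted p = 0.353). The call of Sirpa alone was also lost without B2, B4 or C1, at a limma adjusted p of 0.0505, 0.0538 and 0.0602, and without C1 Cd200r1 was called in its place (limma adjusted p = 0.0407).

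The fibroblast score, the mean z-score of the 14 markers, was added after the data had been seen. Lgals9 rose by 0.35 log2 units per unit of score (SE 0.07, limma adjusted p = 0.0211), and Sirpa fell by 0.44 (SE 0.11, limma adjusted p = 0.0413). These were 1 of 9 genes called higher and 1 called lower, where 4.17% and 5.15% of 16948 genes were (9.32% in either direction). Lilrb4a had a slope of 0.35 (SE 0.13, limma adjusted p = 0.114) and Vsir one of -0.63, neither called. Neither call was kept without library A, B3 or C2, or with prefix in the fit, and that of Sirpa was also lost without B1, B2, B4 or C4 (limma adjusted p of 0.0523 to 0.0802). The slopes themselves stayed between 0.28 and 0.40 for Lgals9 and between -0.49 and -0.35 for Sirpa over the 16 alternatives. Both scores are read from the same libraries and ran against each other, so a gene's slopes on them are not separate evidence.

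**Figure D4:**
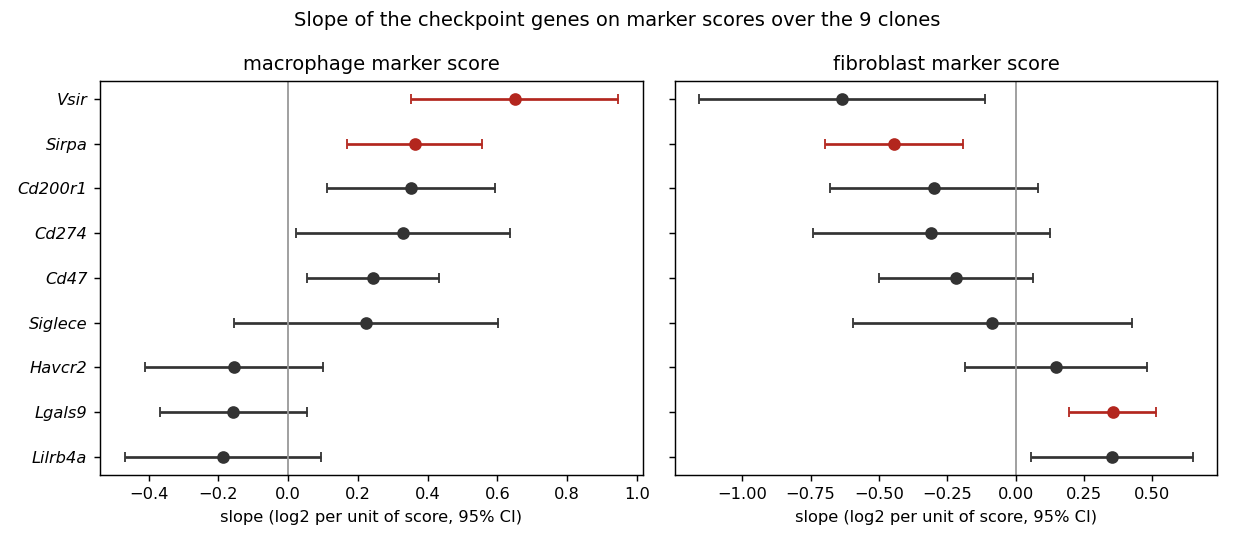
Slope of each checkpoint gene (y axis) on the macrophage score (left) and the fibroblast score (right) over the 9 clones, in log2 units per unit of mean z-score (x axis) with 95% intervals, the genes past the adjusted threshold in red. Vsir and Sirpa are called on the left, Lgals9 and Sirpa on the right.

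The genes that act with the checkpoint genes were taken from lists and are counted as they were tested. With prefix as a term in the fit, limma called 0 genes on the macrophage score and 5 on the fibroblast score over the whole table, so the calls on the macrophage score below are all lost there. Of 3 inhibitory receptor phosphatases, Ptpn6 and Inpp5d, which encode SHP-1 and SHIP-1, rose with the macrophage score, by 0.31 (SE 0.06, limma adjusted p = 0.0260) and 0.30 (SE 0.06, limma adjusted p = 0.0204). Ptpn11, which encodes SHP-2, had a slope of -0.14 and was not called. Ptpn6 ran from 3582 normalized counts in C2 to 6650 in B3, the clones in which Sirpa was also lowest and highest. The same clones were lowest and highest for several macrophage markers, such as Csf1r and Laptm5. Over the 12301 genes that averaged 50 or more, C2 was lowest for 18.9% and B3 highest for 18.8%. Of 9 CD47 and SIRP partners, the adaptor Skap2 and Ptpn6 were called higher with the macrophage score and none lower. In the same list, Thbs1 and Thbs2, which encode thrombospondins and of which thrombospondin-1 is a CD47 ligand, rose with the fibroblast score, by 0.99 and 2.13 log2 units (limma adjusted p = 0.0195 and 0.0326). Thbs1 was at 383797 normalized counts in A, between 77856 and 151207 in B and between 205001 and 246919 in C, so the 3 prefixes did not overlap.

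Of the PD-1 ligand axis partners, none was called lower with the macrophage score. Called higher were Cmtm6, which keeps PD-L1 at the cell surface (slope 0.32), the PD-L2 ligand Rgmb (0.35) and Ifngr1 (0.47). Cmtm6 ran from 2321 to 4171 normalized counts and Ifngr1, a subunit of the interferon-γ receptor, from 2427 to 5369. With the fibroblast score, Jak2 was called higher and Rgmb and Irf1, a transcription factor induced by interferon, lower. Cd80, a costimulatory ligand that also binds PD-L1 on the same cell, had 204 to 363 normalized counts in B, 313 to 648 in C and 505 in A, and was called in neither fit. The ratio of Cd80 to Cd274 normalized counts was 5.49 in C2, 2.06 in A, 0.784 to 1.397 in B and 1.21 in the lowest C clone, so B and C overlapped.

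Of 5 LILRB and PIR partners tested with the fibroblast score, Lilr4b was called higher (0.52, SE 0.13, limma adjusted p = 0.0407) and Apoe, a ligand reported for human LILRB4, lower (-2.45, SE 0.57, limma adjusted p = 0.0323). Apoe had 6534 normalized counts in A, 321817 to 458540 in B and 116111 to 222690 in C. Library A also had the highest fibroblast score, 1.03, and the highest Lilr4b value, 24904 normalized counts. Partner genes were not followed one by one when libraries were left out, so how far these slopes rest on A was not tested. Fn1, which is itself a fibroblast marker, ran from 201242 to 432514. Of 5 TIM-3 and galectin-9 partners, Lgals1 was called higher with the fibroblast score (0.43, limma adjusted p = 0.0491) and no other was called in either score. Of 5 CD200 partners, Dok2, an adaptor of CD200R1, was called lower with the fibroblast score (-0.72, limma adjusted p = 0.00921).

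**Figure D5:**
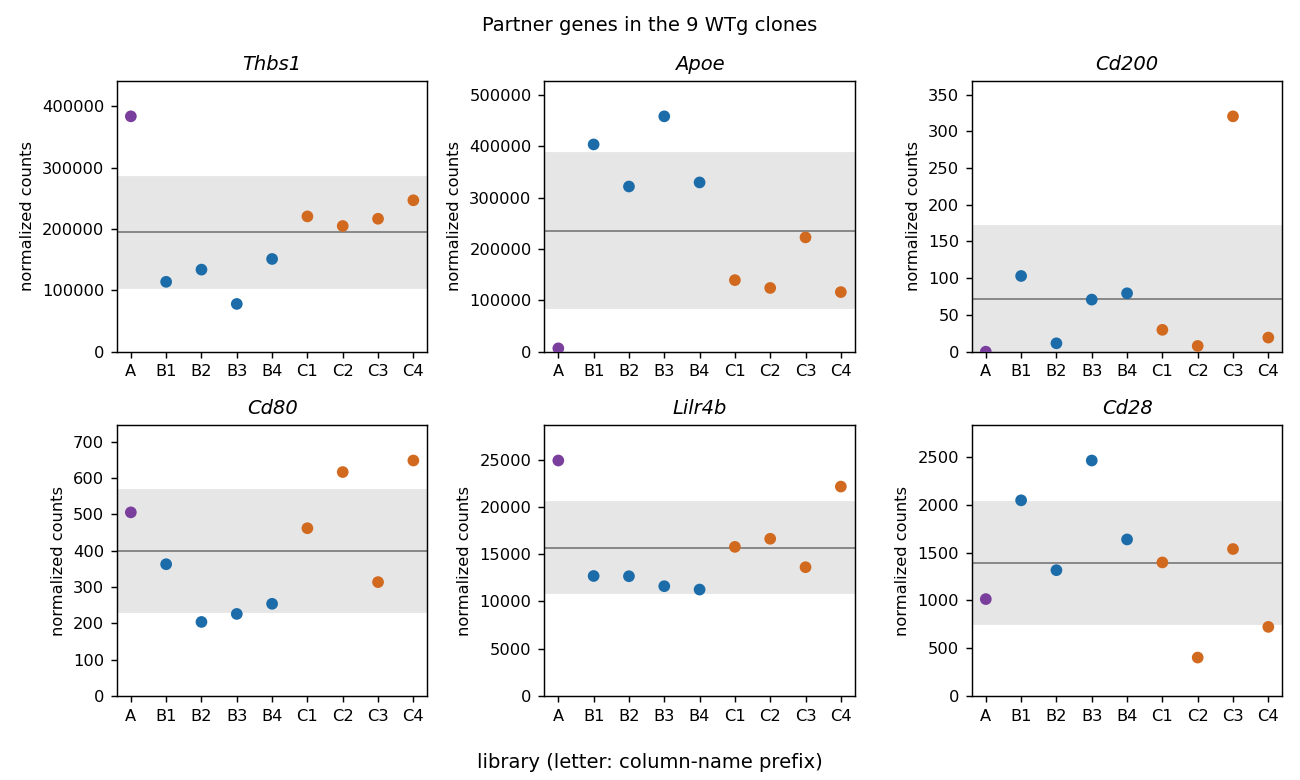
Normalized counts (y axis, from 0) of 6 partner genes in each clone (x axis, library, coloured by prefix), with the mean as a line and 1 SD over the 9 clones in grey. Apoe is at 6534 in A and at least 116111 elsewhere, Thbs1 is highest in A, and Cd200 is highest in C3.

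Of 9 genes of the Siglec family and of sialic acid synthesis, the sialyltransferase St6gal1 was called higher with the macrophage score (0.47, limma adjusted p = 0.0145) and Cmas, which activates sialic acid, lower with the fibroblast score (-0.41, limma adjusted p = 0.0143). The related receptors Siglec1 and Cd33 ran from 1328 to 5981 and from 1668 to 5287 normalized counts. Siglec1 was lowest in C3, the clone in which Siglece was highest. Both VISTA partners, Igsf11 and Selplg, were called in no fit, with 5.60 to 86.7 and 1768 to 3744 normalized counts. Of 10 further checkpoint ligands and metabolic enzymes, Entpd1 was called higher with the macrophage score (0.71, limma adjusted p = 0.0322). Cd276 was called higher and Cd40 lower with the fibroblast score (0.49 and -0.92, limma adjusted p = 0.0157 and 0.0472).

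Of 8 lymphocyte checkpoint receptors, Lag3 and Cd28 were listed, and Pdcd1, Ctla4, Tigit, Btla, Icos and Cd96 were not analysed here. Lag3 was at 1.42 to 10.9 normalized counts. Cd28, which encodes a costimulatory receptor of T cells, ran from 401 in C2 to 2464 in B3, while Lck did not exceed 8.75 normalized counts in any clone. In the comparison of prefixes and in the fit on Mettl3, limma called 0 genes of any partner list. At an unadjusted p under 0.05, the highest count between prefixes was 6 of the 11 PD-1 ligand axis partners, and with Mettl3 it was 3 of the 5 TIM-3 and galectin-9 partners, beside the 3148 and 2476 genes given above.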

How the data were processed

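Polyadenylated RNA of 9 clones was sequenced with the TruSeq stranded kit. The authors deposited 1 table of log2 values for 18049 genes, made by multiplying each read count by 1 factor per library, adding an offset of 4 and taking the log2. The submitters' processing notes name FastQC 0.11.9, STAR 2.7.10, RSEM 1.3.3 and GRCm38. A further 6 columns, MEF libraries of other studies, were left out of every step. The column names show the group but not which numbered sample each column is.

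The log2 was undone and 4 subtracted. The spacing of low values gave the worth of 1 read in each library, with whole reads (tolerance 0.1) for 100% of nonzero values under 1000 reads. The most alike pair of libraries, B1 and B4, differed by more than counting noise (chi-square per degree of freedom 22.6). Levels are means ± SD without a test. The comparison of prefixes, the slope on log2 Mettl3 and the slopes on marker scores were fitted with limma (eBayes, trend allowed) to log2(normalized counts + 1) of every gene averaging 1 or more, without Mettl3 or the markers where these were the covariate. Benjamini-Hochberg adjustment ran over all genes, with calls at an adjusted p under 0.05. Fold changes on this scale understate those of low genes. The fits were tested on simulated counts, drawn independently with the same dispersion for every gene and no shared source among clones. That test does not cover clones that share a source.

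The 10 members, the partner and marker lists and the rules were chosen with earlier results of these data known. Named beside the members were binding partners, phosphatases and adaptors of the lists, and the 3 genes most like each of the 3 most variable members. Lilrb4b of the list stands under the symbol Lilr4b. Alternatives were other pseudocounts, the deposited log2 values, upper-quartile or total scaling, other filters, voom, prefix or marker terms and left-out libraries. Of 18049 identifiers, 18033 matched the gene names at hand. 1 gene of the partner lists is not reported here. Coordinates are RefSeq's on GRCm38.p6. Software was Python 3.11.15, numpy 2.4.6, pandas 2.3.3, scipy 1.17.1, matplotlib 3.10.9, R 4.3.3 and limma 3.58.1.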

Additional observations from a re-analysis of the deposited data

Results flagged for a closer look

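Of 57 checkpoint and partner genes examined for a clone set apart by Dixon's ratio at its 95% critical value for 9 clones (the gap to the nearest clone over the whole range), 14 had one, where about 2.85 arise by chance at 1 in 20. Genes that vary together are not independent trials. The 2.85 also supposes normally distributed values from 9 clones without group differences. The ratio was taken on normalized counts and not on the log2 scale, and A, B and C differed in Mettl3 or Xist. The 2.85 is therefore nominal, and 14 cannot be judged against it. The rule was not run over all genes, so whether 14 exceeds the share of all genes was not tested. Of the checkpoint genes, Cd274 was the only one, with C2 at 112 normalized counts below the next clone at 211 (ratio 0.560).

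Library A was set apart for Jak1 (highest, 8558, ratio 0.504), Hmgb1 (highest, 6392, ratio 0.641), Lgals1 (highest, 46199, ratio 0.658) and Bag6 (lowest, 3972, ratio 0.618). Hmgb1, Lgals1 and Bag6 belong to the TIM-3 and galectin-9 partners, and library A also had the highest ratio of Lgals9 to Havcr2. Over the 12301 genes that averaged 50 or more, A was highest for 21.5% and lowest for 19.5%, the largest shares of any library. Being set apart was thus not particular to these partners.

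Library C4 was highest for Ceacam1 (505, ratio 0.652), Selplg (3744, ratio 0.633), Lilra6 (158, ratio 0.741) and Cd200r4 (1969, ratio 0.665). Library C1 was highest for Igsf11 (86.7, ratio 0.4932), Cd24a (277, ratio 0.680) and Arg1 (380, ratio 0.720). Library C3 was highest for Cd200 (320 against 103 in the next clone, ratio 0.678), and C2 for Fn1 (432514, ratio 0.503). The values are in normalized counts.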

How the results depend on the processing

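The mean level of each of the 9 genes moved by less than 1 SD under every alternative tried (4 per gene). No paired analysis was possible because there is a single group and its columns carry no sample number.

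Between prefixes no alternative called a checkpoint gene. The 29 genes called became 15 with no filter and 5 with both marker scores as terms (added after seeing the data), and 9 to 242 when each library was left out, 242 being without C3. The marker terms turned Cd274 to 0.42, Sirpa to 0.10, Cd47 to 0.10 and Cd200r1 to 0.56. They brought Vsir from -0.82 to -0.034 and Lgals9 from 0.26 to 0.054. With single libraries left out Siglece ran from -0.12 to 0.24 and was negative without B2, B4, C3 or C4.

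On Mettl3 the 417 genes became 656 with a pseudocount of 0.1, 238 at a mean of at least 50, 69 with voom, and 0 without A or with prefix as a term. Without A, Sirpa turned to 1.04, Cd47 to 0.84, Vsir to 2.19, Siglece to 0.072, Cd200r1 to 1.103, Lgals9 to -0.61 and Lilrb4a to -1.04. With prefix, Cd274 turned to -0.91, Cd47 to 1.38, Havcr2 to 0.40, Siglece to 0.84 and Cd200r1 to 1.56.

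On the macrophage score, prefix as a term left 0 genes and 0 of the 9, and turned Lgals9 to 0.0089 and Lilrb4a to 0.18. Leaving out each library gave 8 to 1579 genes and 0 to 2 of the 9. The fewest, 8 and 16 genes, were without B1 and C2. On the fibroblast score, no filter left 1 of the 9, leaving out A 393 genes and 0 of the 9, and prefix as a term 5 genes and 0 of the 9, with Cd47 turned to 0.059 and Lilrb4a to -0.020. Leaving out each of the other libraries gave 73 to 2187 genes and 0 to 2 of the 9, and Siglece ran from -0.14 to 0.13, turning without B3. The cause was not tested. Levels per length were not run. Siglece and Cd274 rest on few reads, which limits their precision.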

Other observations

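Arg1, an enzyme of macrophages that deplete arginine, ran from 4.38 normalized counts in A and 5.60 in a C clone to 380 in C1, with 40.7 to 110 in the B clones. Nt5e and Entpd1, the enzymes that turn extracellular ATP into adenosine, ran from 16.8 to 148 and from 1222 to 5069 normalized counts. Pvr and Nectin2, which encode ligands of TIGIT, ran from 767 to 2094 and from 856 to 2112, both highest in A. The B and C ranges of Nectin2 did not overlap, with 856 to 1243.2 in B and 1243.7 to 1734 in C, a gap smaller than the spread within either prefix. Siglecg had 256 to 823 normalized counts in B, 1013 to 1413 in C and 755 in A.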
